A study of Mus musculus with 4 samples.

Results

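The Slc25 family of mitochondrial carriers was examined in RNA-seq of E13.5 mouse brain, in macroH2A knockout (KO) and wild-type (WT) embryos. Members were the protein-coding genes whose symbol is Slc25a followed by a number and that have a row in both deposited count tables. There were 42 such genes among the 19150 genes in both tables. The groups were 2 KO libraries, KO2 and KO4, and 2 WT libraries, WT6 and WT8, all of total brain RNA from C57BL/6 embryos at E13.5. The labels give the genotype as KO or WT and do not say which macroH2A gene was deleted, by which allele or in which cells. MacroH2A is a histone variant that replaces H2A in part of the nucleosomes, and the comparison asks which brain transcripts differ between KO and WT embryos.

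Slc25 carriers are the largest family of transporters of the mitochondrial inner membrane. Most carry small molecules such as nucleotides, phosphate, dicarboxylates, amino acids, iron or cofactors between the cytosol and the matrix, and the substrate of several members is still disputed or unknown. Neurons and neural progenitors depend on them for ATP export, for the malate-aspartate shuttle that brings reducing power from glycolysis into mitochondria, and for citrate export to fatty acid synthesis.

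Depth was similar, with 16470090 to 18136745 counted reads per library. H2afy, which encodes macroH2A1, had 1368 and 1267 reads in KO2 and KO4, against 5538 and 5593 in WT6 and WT8, which is a log2 fold change of -2.22 (edgeR adjusted p = 0.00167). It was the 1 gene called among 15708 tested (0.00637%). H2afy2, which encodes macroH2A2, had a log2 fold change of 0.08. All 8 neural markers on the list were present, and their summed CPM was 5478 and 5334 in KO2 and KO4, against 5402 and 5961 in WT6 and WT8. The 11 erythroid markers in both tables summed to 1006 and 911 CPM in KO2 and KO4, against 788 and 1485 CPM in WT6 and WT8. One deposited table sets KO2 against WT6, the other KO4 against WT8. Xist, the X inactivation RNA, had 6 and 8105 reads in KO2 and KO4, against 19 and 6094 in WT6 and WT8, and Y-linked Eif2s3y had 1150 and 1 reads, against 697 and 1. KO2 and WT6 therefore carry male transcripts and KO4 and WT8 female ones, so the deposited pair and sex cannot be told apart. In whole-brain RNA, fewer cells of a type and less RNA per cell cannot be told apart either.

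The 5′ ends of 3 of the genes are shown because the first pair are the most abundant carriers here and the third is shared with a second member. Each is the RefSeq window of 250 bases before to 50 after the gene's RefSeq start on GRCm38.p6, printed 5′ to 3′ on the gene's strand. Capitals mark CCAAT, the SP1 motif GGGCGGG or TATAA, with matches on the other strand appearing as ATTGG or CCCGCCC. The windows are chr8:46211013-46211312 on the minus strand for Slc25a4, chrX:36795347-36795646 on the plus strand for Slc25a5 and chr12:108835827-108836126 on the minus strand for Slc25a29.
Slc25a4: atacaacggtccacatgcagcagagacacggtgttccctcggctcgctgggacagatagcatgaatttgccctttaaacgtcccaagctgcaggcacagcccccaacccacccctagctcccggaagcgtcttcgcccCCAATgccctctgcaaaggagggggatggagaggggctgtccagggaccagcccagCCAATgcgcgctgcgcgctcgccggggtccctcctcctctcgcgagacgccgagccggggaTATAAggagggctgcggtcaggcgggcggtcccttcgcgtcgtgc
Slc25a5: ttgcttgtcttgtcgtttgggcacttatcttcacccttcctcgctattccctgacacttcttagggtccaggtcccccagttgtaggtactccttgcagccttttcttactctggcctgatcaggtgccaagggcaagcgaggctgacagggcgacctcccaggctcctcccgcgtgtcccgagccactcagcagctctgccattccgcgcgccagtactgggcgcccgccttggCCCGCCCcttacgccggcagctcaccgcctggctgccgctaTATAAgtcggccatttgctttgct
Slc25a29: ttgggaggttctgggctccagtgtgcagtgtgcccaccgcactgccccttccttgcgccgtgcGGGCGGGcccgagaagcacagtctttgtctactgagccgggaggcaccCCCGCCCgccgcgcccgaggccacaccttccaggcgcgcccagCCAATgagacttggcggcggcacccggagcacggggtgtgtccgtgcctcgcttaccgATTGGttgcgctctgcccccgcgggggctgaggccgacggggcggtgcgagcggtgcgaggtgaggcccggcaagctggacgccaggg
The TATAA of Slc25a5 begins 28 bases before the gene start given in the deposited tables, and that of Slc25a4 begins 227 bases after it. Counted from the RefSeq start that sets the windows, that of Slc25a5 begins 26 bases after it and that of Slc25a4 5 bases after it. The Slc25a29 window also holds the start of Slc25a47 on the opposite strand, 163 bases from the start of Slc25a29. Of the 42 members, 32 had a RefSeq window, as had 11050 of the 15708 genes tested. CCAAT was found on either strand in 50% of the member windows and 38.6% of the windows of all genes tested, GGGCGGG in 59.4% and 47.9%, and TATAA in 12.5% and 12.7%. The NRF1 motif, bound by a regulator of mitochondrial genes, was in 6.25% of member windows and 10.1% of all, and the ERRA motif AAGGTCA in 3.12% and 3%. These matches describe letters in the windows and are not binding sites.

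Levels of different genes are given as CPM per kilobase of exon (CPM/kb), averaged over the 4 libraries. They spanned from 259.7 CPM/kb for Slc25a5 to 0.066 CPM/kb for Slc25a31. Of the 42 members, 17 were at 10 CPM/kb or more, 17 between 1 and 10, and 8 under 1. Slc25a5 and Slc25a4, the ADP/ATP carriers ANT2 and ANT1, led with 259.7 and 231.5 CPM/kb. Slc25a3, the phosphate carrier, followed with 73.9, then the citrate carrier Slc25a1 with 62.6, the oxoglutarate carrier Slc25a11 with 55.0 and the mitochondrial glutathione carrier Slc25a39 with 41.4. The library ranges overlapped for 30 of the 41 pairs of neighbours in this order, so much of the finer order is not resolved. The order also depends on the length used, which merges all annotated exons of a gene. This length was 5550 bases for Slc25a3 and 1646 for Slc25a5, whose CPM in KO2 were close, at 411 and 432.

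**Figure D1:**
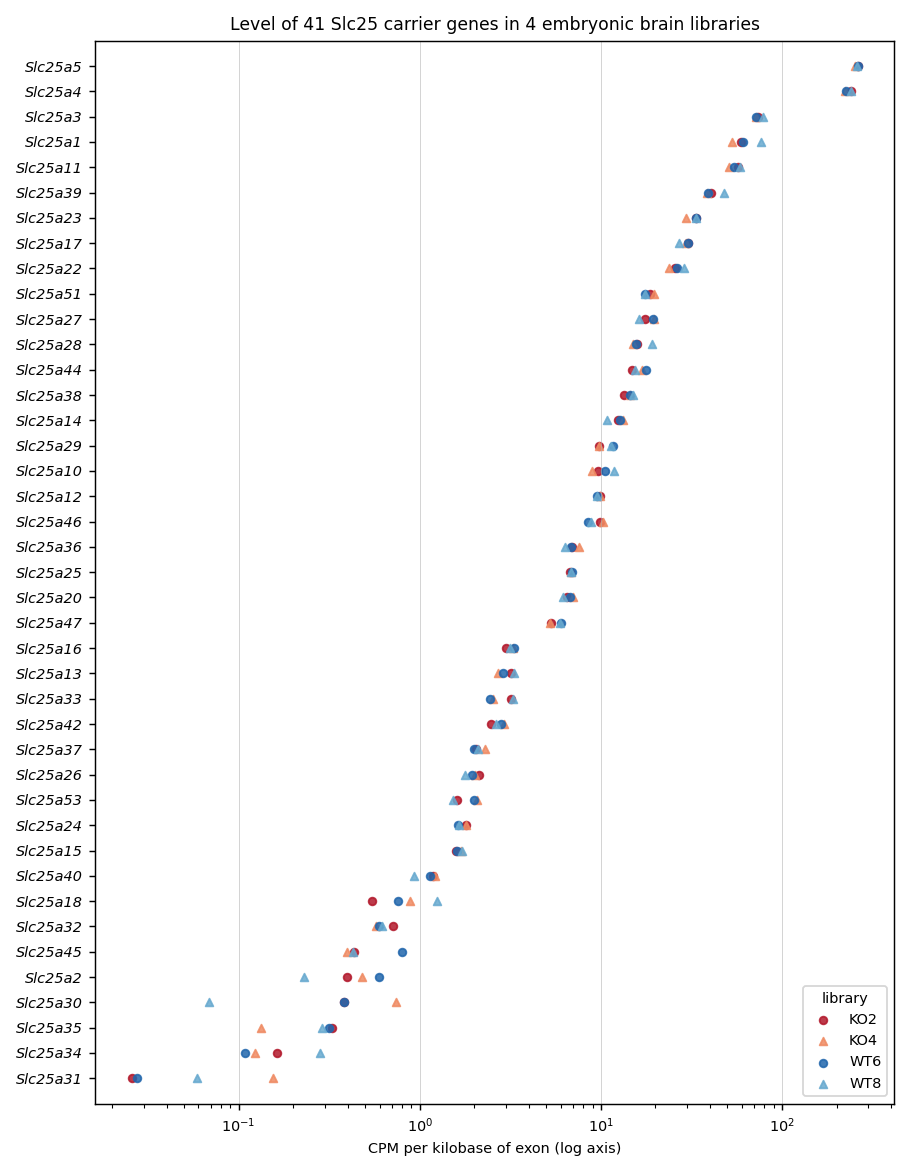
Level of 41 Slc25 genes in CPM per kilobase of exon (log axis), ordered by the mean of the 4 libraries, with 1 point per KO and WT library. Slc25a5 and Slc25a4 lie above 200 CPM/kb while 8 genes lie under 1, and in most genes the libraries of both genotypes lie close together on this scale.

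The family's total varied little. The 42 members summed to 3038 and 2939 CPM in KO2 and KO4, against 3010 and 3132 CPM in WT6 and WT8, so KO2 lay between the WT libraries. Slc25a4, Slc25a5 and Slc25a3 together made up 46.3% and 45.5% of this sum in KO2 and KO4, against 45.2% and 45.6% in WT6 and WT8.

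No member was called between KO and WT. Of the 42 genes, 40 passed the filter on low counts, and the smallest edgeR adjusted p among them was 0.743. At an unadjusted p under 0.05, edgeR found 2 of 40 (5%), against 4.7% of all genes tested, and limma-voom found the same 2, Slc25a46 and Slc25a10 (4.65% of all genes). DESeq2 called 0 members after adjustment (0.0255% of all genes) and found 1, Slc25a1, at an unadjusted p under 0.05, against 1.94% of all genes. These shares are near the background. Both KO libraries were above both WT libraries for 8 of 40 members (all genes 20.1%) and below both for another 8 (all genes 19.4%), so that 16 of 40 did not overlap in either direction (all genes 39.4%). The log2 fold change was above 0 for 17 of 40 members, against 48.9% of all genes tested. The median log2 fold change was -0.016 over members and -0.007 over all genes tested, and 36 of 40 members lay within 0.3 of 0. For 32 of the 40, the 95% interval lay within 0.585 of 0 on the log2 scale, which corresponds to 1.5-fold in either direction. For the other 8, the interval does not exclude a larger difference; for Slc25a1 its lower end, -0.5851, is just past that bound.

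**Figure D2:**
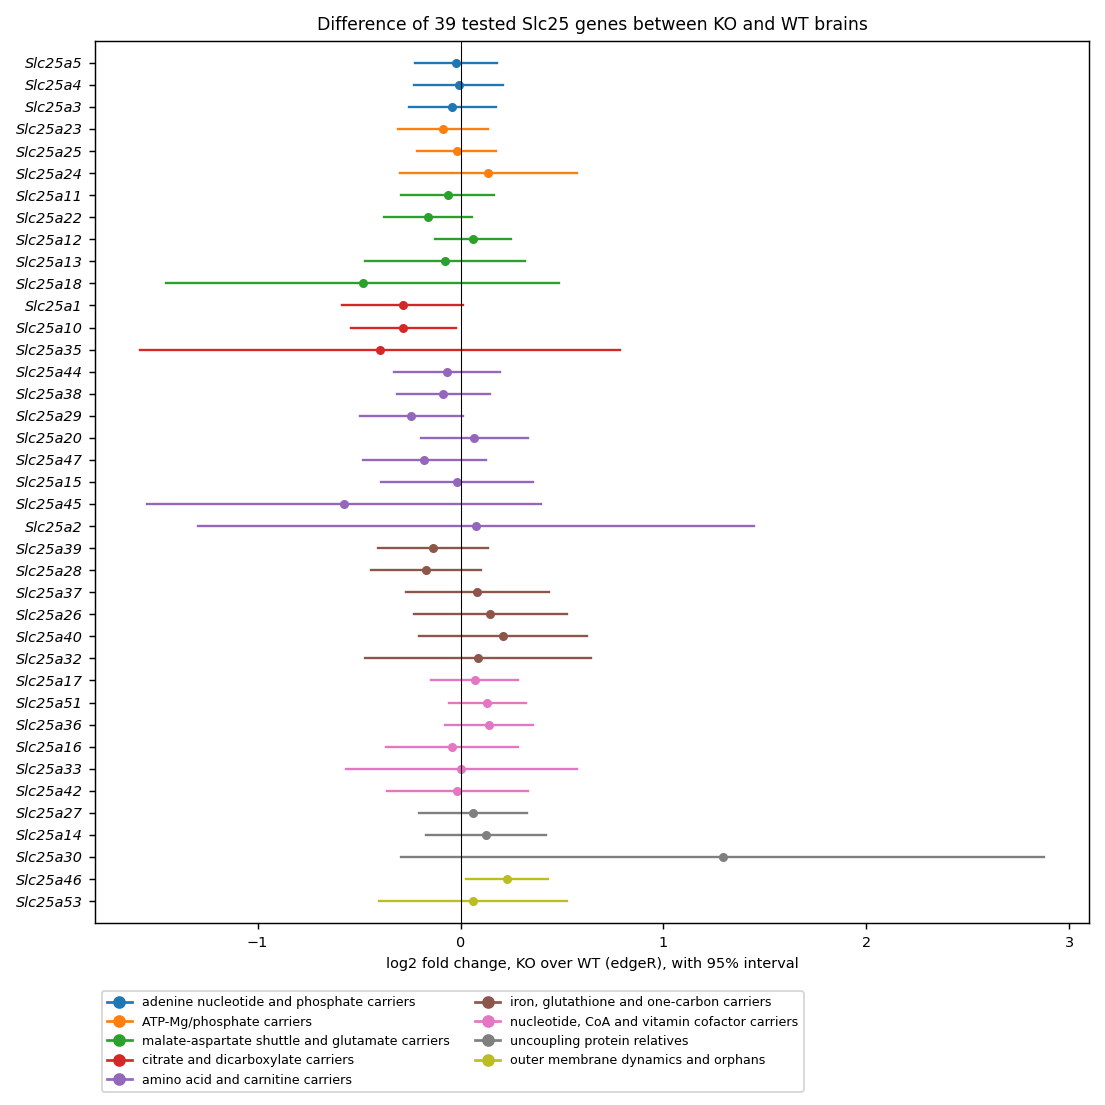
Log2 fold change (KO over WT, edgeR) of 39 Slc25 genes tested, grouped by role, with 95% intervals. Most points lie within 0.3 of 0, none was called, and Slc25a30 has the highest value (1.29) and a wide interval.

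The carriers of ATP and phosphate included the most abundant members, and these differed little between genotypes. Slc25a5 had 432 and 416 CPM in KO2 and KO4, against 433 and 429 CPM in WT6 and WT8, a log2 fold change of -0.02 (SE 0.08). Slc25a4 had 562 and 524 CPM in KO2 and KO4, against 528 and 565 CPM in WT6 and WT8, a log2 fold change of -0.01 (SE 0.09). The libraries of both genotypes overlapped for both genes. The ratio of Slc25a4 to Slc25a5 per kilobase was 0.909 and 0.882 in KO2 and KO4, against 0.854 and 0.922 in WT6 and WT8. Slc25a3, which brings in phosphate for ATP synthesis and copper for cytochrome oxidase, had 411 and 397 CPM in KO2 and KO4, against 398 and 433 CPM in WT6 and WT8 (log2 fold change -0.04). Slc25a5 has pseudogene copies, of which Gm5529 matches it at 96.8% identity over 900 bases and had 56 and 51 reads in KO2 and KO4, against 44 and 42 in WT6 and WT8, not scaled to depth. The sources used here do not say how reads shared by such copies were counted. Slc25a31, ANT4, known from male germ cells, had 1 and 6 reads in KO2 and KO4, against 1 and 2 in WT6 and WT8, and was not tested. The 3 calcium-regulated ATP-Mg/phosphate carriers tested, Slc25a23, Slc25a24 and Slc25a25, had log2 fold changes of -0.08, 0.14 and -0.02.

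In the malate-aspartate shuttle, Slc25a11 exchanges oxoglutarate for malate and Slc25a12 (aralar) exports aspartate for glutamate. Slc25a11 had 121 and 108 CPM in KO2 and KO4, against 115 and 124 CPM in WT6 and WT8 (log2 fold change -0.06). Slc25a12, the aspartate carrier of neurons, had a log2 fold change of 0.06 (SE 0.08), and its partner of liver and other tissues, Slc25a13, -0.07 (SE 0.17). The ratio of Slc25a12 to Slc25a13 per kilobase was 3.13 and 3.65 in KO2 and KO4, against 3.31 and 2.85 in WT6 and WT8. The glutamate carrier Slc25a22 had 153 and 143 CPM in KO2 and KO4, against 158 and 172 CPM in WT6 and WT8, with a log2 fold change of -0.16 (edgeR adjusted p = 0.743). Its relative Slc25a18, known from astrocytes in the adult, had 19 and 31 reads in KO2 and KO4, against 25 and 38 in WT6 and WT8. None of the 5 shuttle and glutamate carriers on the list was called. Of these, 1 (Slc25a12) had a value above 0, against 48.9% of all genes tested.

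Slc25a1 and Slc25a10 were the members of the citrate and dicarboxylate list with 100 reads or more in every library. In both, the KO libraries lay below the WT libraries, as was so for 19.4% of all genes tested. Slc25a1 (chr16:17925211-17928219, minus strand, GRCm38), which exports citrate for fatty acid and sterol synthesis, had 129 and 115 CPM in KO2 and KO4, against 133 and 165 CPM in WT6 and WT8. KO2 lay below WT6 by a small margin only, and the log2 fold change was -0.29 (SE 0.13, 95% interval -0.59 to 0.01, edgeR adjusted p = 0.743). Without WT8 it was -0.12. Slc25a10 (chr11:120491840-120499187, plus strand), which exchanges malate or succinate for phosphate, had 33.2 and 30.7 CPM in KO2 and KO4, against 36.6 and 41.0 CPM in WT6 and WT8, a log2 fold change of -0.28 (SE 0.11, 95% interval -0.54 to -0.02, edgeR adjusted p = 0.743). Slc25a10 shares 6.6% of its exonic bases with another gene. Slc25a35, of unsettled substrate, had 22 and 9 reads in KO2 and KO4, against 20 and 17 in WT6 and WT8, and it shares 31.3% of its exonic bases with Rangrf. Slc25a34, also of unsettled substrate, had 8 and 6 reads in KO2 and KO4, against 5 and 12 in WT6 and WT8, and was not tested.

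Among 8 amino acid and carnitine carriers tested, 2 had values above 0. Slc25a29, which carries arginine and lysine, had 25.5 and 25.4 CPM in KO2 and KO4, against 30.4 and 29.8 CPM in WT6 and WT8, for a log2 fold change of -0.24 with SE 0.11 (edgeR adjusted p = 0.743). The groups did not overlap, as was also so for 39.4% of all genes tested, and the libraries within each genotype lay close together. Slc25a47, which starts 163 bases away on the other strand, had 292 and 288 reads in KO2 and KO4, against 309 and 285 in WT6 and WT8. Scaled to depth these were 15.9 and 15.7 CPM in KO2 and KO4, against 17.96 and 17.85 CPM in WT6 and WT8 (log2 fold change -0.18). Both KO libraries were thus also below both WT libraries, as for 19.4% of all genes tested. The reads of Slc25a29 were 1.603 and 1.615 times those of Slc25a47 in KO2 and KO4, against 1.693 and 1.67 times in WT6 and WT8. Slc25a47 is known from liver. GENCODE M21 lists 5 transcripts of it, of which 3 start within 2000 bases of the gene start and 2 start 15083 bases or more further in, the RefSeq start among them; the counts do not say which of these the brain reads came from. Of 6 liver markers listed, only Ttr, which choroid plexus also makes, could be analysed here, at 0.3274 and 0.6004 CPM in KO2 and KO4, against 3.08 and 0.251 CPM in WT6 and WT8. In GENCODE M21, Slc25a29 shares 0 exonic bases with another gene, so exonic reads of Slc25a29 and Slc25a47 fall at separate positions. Slc25a38, the glycine carrier that feeds haem synthesis, and Slc25a20, the carnitine-acylcarnitine carrier, had log2 fold changes of -0.09 and 0.07. Slc25a44, which carries branched-chain amino acids, was at -0.07, with pair values of opposite sign. The ornithine carrier Slc25a15 was at -0.02. Slc25a2, a second ornithine carrier, and Slc25a45 had few reads, 10 and 12 reads in KO2 and KO4, against 14 and 5 in WT6 and WT8, for Slc25a2, and 22 and 20, against 38 and 19, for Slc25a45 (log2 fold changes 0.08 and -0.57).

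The iron, glutathione and one-carbon carriers had 4 of 6 values above 0 and a median of 0.08. Slc25a39 had 112 and 106 CPM in KO2 and KO4, against 107 and 132 CPM in WT6 and WT8 (log2 fold change -0.14), so WT8 stood above the others. Slc25a37, mitoferrin-1, the iron importer of red blood cell precursors, had 225 and 254 reads in KO2 and KO4, against 207 and 202 in WT6 and WT8 (log2 fold change 0.08). In CPM the genotypes overlapped, with 12.28 and 13.86 in KO2 and KO4, against 12.03 and 12.65 in WT6 and WT8. Mitoferrin-2, Slc25a28, is the form of most other tissues and had a log2 fold change of -0.17. Slc25a40, the close relative of Slc25a39, was at 0.21, the S-adenosylmethionine carrier Slc25a26 at 0.15 and the folate carrier Slc25a32 at 0.08. The ratio of Slc25a28 to Slc25a37 per kilobase was 7.79 and 6.51 in KO2 and KO4, against 7.83 and 9.08 in WT6 and WT8, so KO4 was lowest and WT8 highest. Slc25a37 itself was highest in KO4. The erythroid marker sum was 1006 and 911 CPM in KO2 and KO4, against 788 and 1485 CPM in WT6 and WT8. This sum was highest in WT8 and lowest in WT6, and its part in these values was not tested.

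Among carriers of nucleotides, coenzyme A and vitamin cofactors, 4 of 7 were above 0, and the median was 0.00397. Slc25a51, the NAD+ carrier, had 103 and 108 CPM in KO2 and KO4, against 95.9 and 96.6 CPM in WT6 and WT8 (log2 fold change 0.13). The pyrimidine nucleotide carrier Slc25a36 was at 0.14, with 66.3 and 72.7 CPM in KO2 and KO4, against 65.3 and 60.9 CPM in WT6 and WT8. Slc25a17, the peroxisomal carrier of coenzyme A, NAD+ and FAD, was at 0.07, the coenzyme A carriers Slc25a16 and Slc25a42 at -0.04 and -0.02, and the pyrimidine carrier Slc25a33 at 0.00397. In Slc25a51 and Slc25a36 the genotypes did not overlap, as was also so for 39.4% of all genes tested.

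Slc25a46, a carrier relative of the outer membrane that acts in mitochondrial fission and lipid traffic and whose loss causes optic atrophy and neuropathy in people, was the member above 0 with the smallest p. It had 987 and 1026 reads in KO2 and KO4, against 793 and 762 in WT6 and WT8, or 53.9 and 56.0 CPM, against 46.1 and 47.7 CPM. The log2 fold change was 0.23 (SE 0.08, 95% interval 0.03 to 0.43, edgeR adjusted p = 0.743). Both deposited pairs gave like values, 0.22 with WT6 and 0.23 with WT8, and the value ran from 0.20 to 0.26 when any 1 library was left out. Slc25a46 was picked for its small p in these same libraries, so this steadiness is not separate support for a difference. Slc25a46 shares 7.06% of its exonic bases with another gene.

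**Figure D3:**
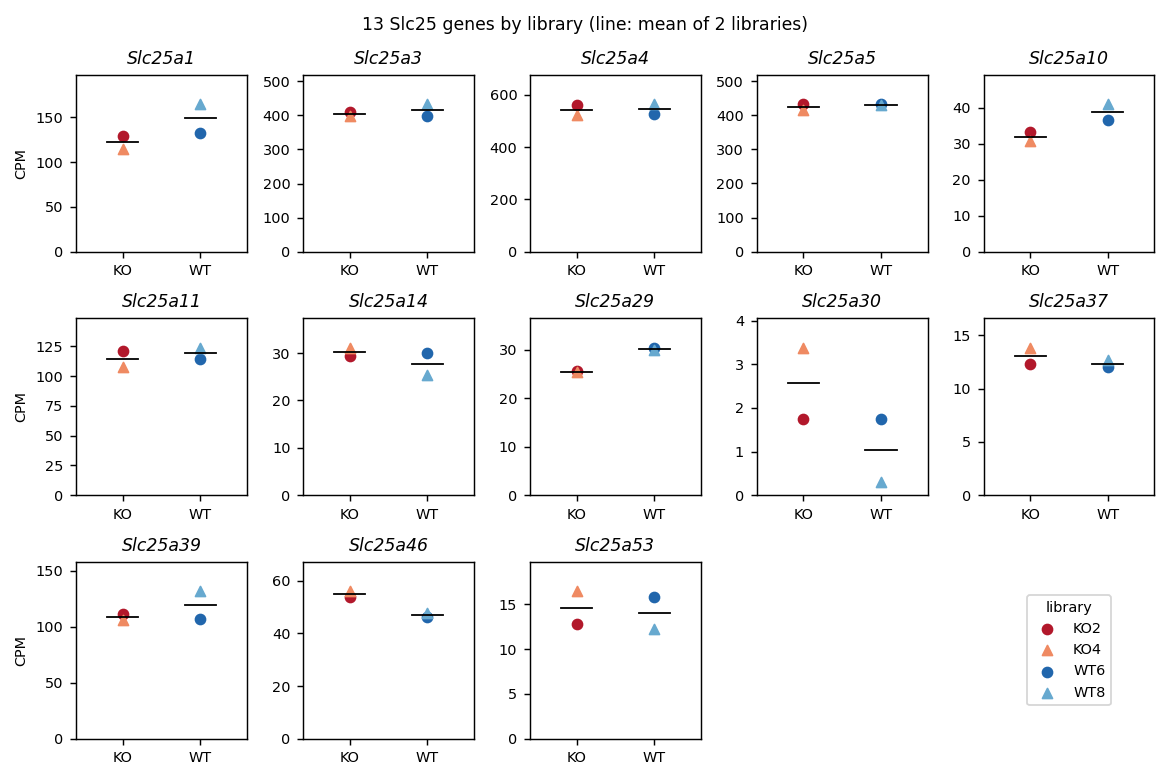
CPM of 13 Slc25 genes (the most abundant, those with the smallest edgeR p, the X-linked ones and Slc25a37), with 1 point per library, a line at the mean of each genotype, KO left of WT, and linear axes that start at 0. Slc25a46, Slc25a10, Slc25a1, Slc25a29 and Slc25a30 are the panels where the KO and WT points do not overlap, though for Slc25a30 KO2 and WT6 nearly coincide (1.746 and 1.744 CPM), and in the other panels they overlap. These panels are among those picked for a small edgeR p, and 39.4% of all genes tested did not overlap either.

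The uncoupling protein relatives were Slc25a14, Slc25a27 and Slc25a30, also known as UCP5, UCP4 and KMCP1, and all 3 values were above 0. Their levels were 12.27, 18.19 and 0.3931 CPM/kb, so Slc25a30 was little expressed here. Slc25a27 was at 0.06. Slc25a30 (chr14:75761999-75787037 on the minus strand), reported as a carrier of sulfur compounds, had 32 and 62 reads in KO2 and KO4, against 30 and 5 in WT6 and WT8. The exact Poisson 95% interval was 47.5 to 79.5 reads in KO4, against 1.62 to 11.7 in WT8, and covers counting error only. Its log2 fold change was 1.29 (SE 0.67, 95% interval -0.29 to 2.88, edgeR adjusted p = 0.743). Without WT8 it was 0.56, and without KO4 it was 0.74. The ratio within KO2 and WT6 was 0.00 and within KO4 and WT8 it was 3.03, the third highest of all genes tested for that pair. In the authors' deposited table, its log2 fold change for KO4 over WT8 was 3.50 with an adjusted p of 6.49e-12, and this is the 1 member carrying the authors' mark there (5.05% of genes), while 0 members carry it for KO2 over WT6 (1.86% of genes). KO2 and WT6 had nearly the same level, 1.746 and 1.744 CPM, while KO4 was higher and WT8 lower than both, at 3.384 and 0.3131 CPM.

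Of the members, 3 are on the X chromosome, Slc25a5, Slc25a14 and Slc25a53. Slc25a14 had 539 and 571 reads in KO2 and KO4, against 517 and 406 in WT6 and WT8 (log2 fold change 0.13). Scaled to depth these were 29.4 and 31.2 CPM in KO2 and KO4, against 30.05 and 25.42 CPM in WT6 and WT8, so the genotypes overlapped. The log2 fold change of Slc25a14 was 0.016 without WT8 and 0.25 without WT6. Slc25a53, an orphan carrier, had 235 and 302 reads in KO2 and KO4, against 273 and 195 in WT6 and WT8 (log2 fold change 0.06). Neither was ordered by the Xist reads, since KO4 was the highest and WT8 the lowest for both in CPM.

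The family was also compared between the deposited pairs. In log2 ratios the median over members was 0.00 in the first pair (KO2 over WT6) and -0.03 in the second (KO4 over WT8). The ratios had the same sign in both pairs for 22 of 40 members, against 49.9% of all genes tested. Across the 40 members the ratios of the pairs had a Spearman rho of -0.05 and a Pearson r of -0.05, given as a description since the genes are not independent replicates. The ratio was larger in size in KO4 over WT8 for 28 of 40 members, against 63.8% of all genes. In the authors' deposited table, where each comparison holds 1 library per genotype, 4 of 42 members had an adjusted p under 0.05 in the first pair (17.3% of genes) and 21 of 42 in the second (39% of genes). Slc25a4, Slc25a44 and Slc25a46 were under it in both, and of these only Slc25a46 had the same sign in both pairs of that table, with log2 fold changes of 0.24 and 0.29. Those p-values compare single libraries and do not measure variation among embryos.

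**Figure D4:**
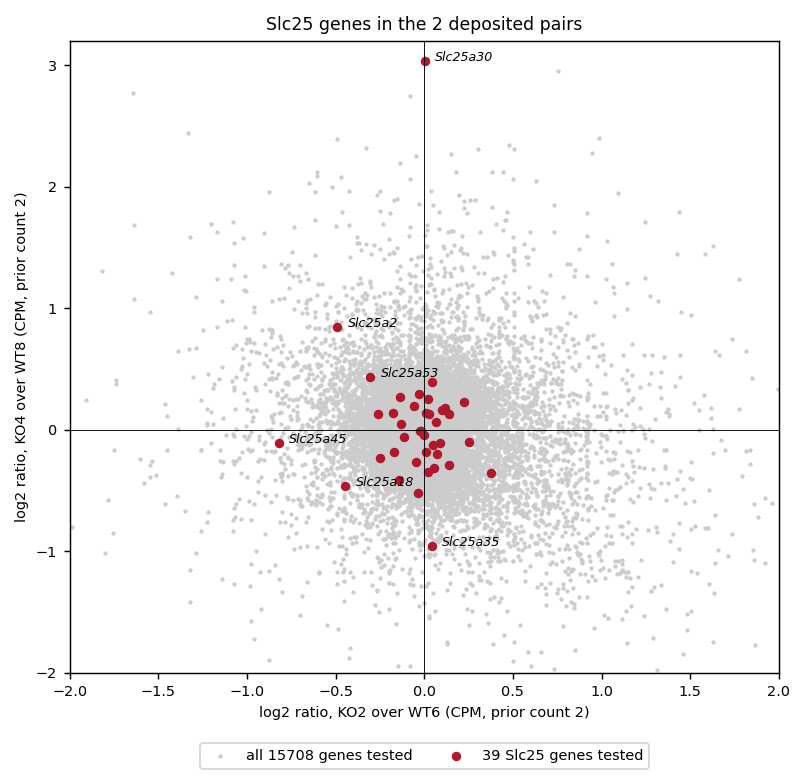
Log2 ratio of KO2 over WT6 (horizontal) and KO4 over WT8 (vertical) for all genes tested (grey) and 39 Slc25 genes tested (red), with 48 genes outside the axes. The red points scatter about 0 with no shared direction, and Slc25a30 lies at 3.03 for KO4 over WT8.

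Among 57 related genes tested, the carriers named otherwise, the shuttle enzymes, the pyruvate carrier, VDACs, the import machinery and the iron and cofactor partners, edgeR called 0, and 4 had an unadjusted p under 0.05 (4.7% of all genes tested). Agk, a lipid kinase that is also part of the import complex for carriers, had a log2 fold change of 0.29, and Timm8b, a small chaperone of carrier import, -0.28. Abcb8, a mitochondrial ABC transporter, was at -0.28, and Shmt2, the one-carbon enzyme of mitochondria, at -0.27. Of the 57, 22 were above 0 (48.9% of all genes tested), and the median was -0.04, against -0.007 over all genes. Mtch1, a carrier relative of the outer membrane, averaged 102 CPM/kb (log2 fold change -0.16), Vdac1, the outer membrane pore, 128 CPM/kb (-0.12), and Got2, the shuttle's aminotransferase, was at -0.23. None of these passed adjustment.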

How the data were processed

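RNA-seq libraries of E13.5 mouse brain were made from 2 KO and 2 WT samples; nothing in the labels says that they come from separate litters, so p-values measure only the spread between these samples. The authors deposited read counts per gene in 2 tables of 1 KO and 1 WT library each, with a normalized CPM, a ratio (fold change) of KO over WT, its log2 and p-values, per the file headers. Tools named in the submitters' processing notes are HTSeq 0.6.0, TopHat2 2.0.12 and Bowtie2 2.2.3, with mm9 as build, and no roles are given. Positions in the tables match GENCODE M21 on GRCm38 for 91.2% of the genes in both, so positions are given on that build. They match for 34 of the 42 members, and those of Slc25a1 and Slc25a30 printed above are among the ones that differ. Exon lengths for CPM/kb were the merged length of all exons of a gene in GENCODE M21, for all 42 members. Strandedness and the test behind the deposited p-values are not given in the sources used here.

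Counts were joined by gene identifier and tested with edgeR 4.0.16 in R 4.3.3 (quasi-likelihood F-test, TMM, filterByExpr, genotype as the only term, 4 libraries), with Benjamini-Hochberg adjustment over 15708 genes and a threshold of 0.05. The script was tested on simulated data. DESeq2 1.42.0, limma-voom (limma 3.58.1), other scalings, no filter, the deposited pair as a term and leaving out each library were alternatives. CPM values are TMM-scaled, and pair ratios are log2 with a prior count of 2. Total counts were between 16470090 and 18136745 per library. Values in every library are given for the 6 members highest per kilobase, the 6 with the smallest edgeR p, the X-linked members and Slc25a37, and for a few others. The members and lists were chosen with earlier results of these data known. Promoter windows are from RefSeq; the TATAA motif was chosen after seeing the windows. Slc25a21, Slc25a41, Slc25a43, Slc25a48, Slc25a52 and Slc25a54 were not analysed here. Counts and medians cover all members, but 1 member is not reported here by name or in the figures.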

Additional observations from a re-analysis of the deposited data

How the results depend on the processing

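No member or related gene was called under any alternative run, and the smallest member adjusted p (edgeR) was 0.314, without WT6. The number of genes called over the whole table was 1 and became 2 with library totals alone, 4 with DESeq2 and 2 with the deposited pair as a term. It ranged from 0 without WT6 to 104 without WT8. The median log2 fold change of members was -0.016 and became 0.0204 with library totals alone, where the median of all genes was 0.03006, against -0.007. With library totals alone Slc25a4 was at 0.028 and Slc25a5 at 0.014, turned in sign. When 1 library was left out, the log2 fold change ranged from -0.10 to 0.027 for Slc25a3, -0.059 to 0.044 for Slc25a4, -0.045 to 0.0044 for Slc25a5, -0.14 to 0.017 for Slc25a11, -0.0083 to 0.17 for Slc25a37, -0.28 to 0.023 for Slc25a39 and -0.13 to 0.26 for Slc25a53. The sign of these 7 depended on which library was left out, so their direction is not settled by these libraries. Slc25a30 ranged from 0.56 without WT8 to 3.004 without WT6, and Slc25a1 from -0.44 without WT6 to -0.12 without WT8. The numbers in the titles are not shared between genotypes and so pair no samples; with the deposited pair as a block, 0 members were called and their median was -0.018. With 2 embryos per genotype, precision is limited by their number, and members with few reads carry the widest intervals.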

Other observations

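The median absolute log2 difference between the KO libraries was 0.108 over members and 0.125 over all genes tested, and between the WT libraries 0.119 and 0.193. KO4 was the lowest library for 17 of 40 members and WT8 the highest for 14 of 40, against 26.4% and 32.8% of all genes tested. KO4 was also the highest library for 12 of 40 members (all genes 25.8%). WT8 was also the lowest for 11 of 40 (all genes 34%). Of the members, 32 had 100 reads or more in every library, so that this comparison also holds their higher read numbers, whose part was not tested. The uncoupling protein Ucp2, known from immune cells, had a log2 fold change of -0.27 (edgeR adjusted p = 0.7587). It had 27.39 and 20.36 CPM in KO2 and KO4, against 23.25 and 34.44 CPM in WT6 and WT8, so the genotypes overlapped. Microglia markers summed to 25.8 and 23.9 CPM in KO2 and KO4, against 26.9 and 32.4 CPM in WT6 and WT8.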
